A study of Mus musculus with 2 samples.

Results

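Crispld2, Inmt and Serpinf1 each had a probe among those with the highest mutant over control ratios in pancreatic islets of RbΔK7 knock-in mice. Of the 2 Serpinf1 probes, 1 was not among them. Members were every gene probe that the array design assigns to one of these names, 5 probes for 3 genes out of 34844 gene names on the array. The genes were chosen by their mutant over control ratios in these same samples, so those ratios are given as a description, and no p-value is given for them. RNA came from islets of RbΔK7 mutant mice, whose knocked-in retinoblastoma protein (Rb) resists phosphorylation, and from islets of control mice. The labels give neither the strain, age or sex of the mice nor the alleles of the controls, and they do not say whether a sample pools several animals. All islets were freed with collagenase and picked by hand. Each of 2 two-colour arrays carried 1 mutant sample in red (Cy5) and 1 control sample in green (Cy3), so there were 2 mutant and 2 control samples in 2 pairs, and both arrays were on 1 slide. No pair had its dyes exchanged, and for a single probe a difference of genotype and a difference of dye cannot be told apart.

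The 3 genes encode proteins of unrelated families. Crispld2 encodes a secreted glycoprotein of the CAP superfamily with LCCL domains. It was described in the mesenchyme of fetal rat lung, its human protein binds bacterial lipopolysaccharide, and glucocorticoids induce it in human airway smooth muscle cells. Serpinf1 encodes pigment epithelium-derived factor (PEDF), a secreted serpin that does not inhibit proteases, binds collagen and heparin, and restrains the growth of blood vessels. Inmt encodes indolethylamine N-methyltransferase, an enzyme of the cytosol that moves a methyl group from S-adenosylmethionine to tryptamine and related amines. The working description of the genes as secreted therefore covers Crispld2 and Serpinf1, while Inmt is not known as a secreted protein.

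Each probe is a 60-base oligonucleotide, and its last 30 bases are shown because the probes of 1 gene gave different values. Positions are those of the scanner files, on mm9, and their place in exons or untranslated regions was not analysed here. The brighter Crispld2 probe lies at chr8:122575417-122575476 on the plus strand and the dimmer one at chr8:122576633-122576692, 1216 bases further along. The Inmt probe lies at chr6:55120770-55120829 on the minus strand. The brighter Serpinf1 probe lies at chr11:75223582-75223641 on the minus strand and the dimmer one at chr11:75229163-75229222. They are 5581 bases apart, and on this strand the brighter one is the nearer to the 3′ end of the gene. Capitals mark AATAAA, the most common polyadenylation signal, which 1 of the 5 probes holds on the strand of the probe, as do 10.1% of the 55681 probes of the array.
Crispld2, brighter probe: tgcgtgctccagccaaatatttcttagacc
Crispld2, dimmer probe: tttcAATAAAacggatttgatttctaacac
Inmt: atcatttgtaaagccttgctccacagcttt
Serpinf1, brighter probe: cagagggaagctgattatacattccaggaa
Serpinf1, dimmer probe: ctactacgacctgatcaccaaccctgacat

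Of 59305 gene spots, 41.0% (replicate 1) and 48.2% (replicate 2) were well above background in the mutant channel, and 37.0% and 38.1% in the control channel. The precision of all values is limited by there being 2 arrays. Islet hormone genes were well above background in every sample. The normalized log2 level of the insulin gene Ins1 was 17.52 and 18.22 in the mutant samples and 17.67 and 16.97 in the control samples. That of Ins2 was 16.99 and 17.70 in the mutant samples and 17.55 and 16.99 in the control samples, and that of Gcg, the glucagon gene, 17.42 and 16.92 in the mutant samples and 15.97 and 17.22 in the control samples. The pancreatic polypeptide gene Ppy had log2 ratios of mutant over control of 2.59 and 1.02 (mean 1.81 ± 1.11, SD, n = 2), a mean close to those of Inmt and Serpinf1 below, and the somatostatin gene Sst had 1.41 and 0.10. Neither passed the test. Markers of acinar cells, the enzyme-making cells of the exocrine pancreas, set the mutant sample of replicate 2 apart. Their summed level over 8 genes was 994931 and 81804 in the mutant samples and 767489 and 1821990 in the control samples, in units of normalized intensity. Of the 8 genes, 7 had a log2 ratio of mutant over control above 0 in replicate 1, such as the lipase gene Pnlip at 0.70, and below 0 in replicate 2, where Pnlip had -5.97. The exception was the protease gene Ctrc, below 0 in both (-2.14 and -5.42). What part acinar RNA has in the ratios of the 3 genes was not tested.

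Crispld2 was above background in all 4 samples with both of its probes. The mean signal of its brighter probe was 845 and 3960 in the mutant samples, over local backgrounds of 57 and 59. In the control samples it was 82.2 and 223, over local backgrounds of 29 and 22. Raw signals of the 2 dyes are not on 1 scale. On the normalized log2 scale the mutant levels of 9.63 and 10.91 lay above the control levels of 7.49 and 8.48. Within each genotype replicate 2 was the higher. After correction for background and dye, log2 ratios of mutant over control were 2.14 in replicate 1 and 2.43 in replicate 2. The mean was 2.29 ± 0.21 (SD, n = 2), a 4.88-fold difference. The dimmer probe had mean signals of 500 and 1920 in the mutant samples and 53.9 and 151 in the control samples. Its ratios were 1.91 and 1.93, with a mean of 1.92 ± 0.019 (SD, n = 2). The log2 ratio of the brighter probe exceeded that of the dimmer by 0.23 in replicate 1 and 0.50 in replicate 2. With the scanner software's processed signals the mean ratio of the brighter probe was 2.79, and with median centring in place of the dye curve it was 3.09, where all tested probes had medians of 0.39 and 0.84.

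Inmt had nearly the same raw signal in both replicates of each genotype. Its single probe had mean signals of 520 and 607 in the mutant samples, over local backgrounds of 55 and 56. In the control samples the signals were 48.6 and 49.6, over local backgrounds of 32 and 28, and they were well above background in replicate 1 only. On the normalized log2 scale the mutant levels of 8.96 and 8.44 stood clear of the control levels of 6.88 and 6.64. In the control samples the enzyme's transcript was close to the limit of detection. Log2 ratios were 2.08 and 1.80, with a mean of 1.94 ± 0.20 (SD, n = 2), a 3.84-fold difference. The size of this ratio moved with the processing. On the log2 scale its mean was 2.27 without background correction, 2.96 with no offset and 2.54 with median centring. It was 3.58 with the processed signals of the scanner software, in which both the background and the dye step differ.

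Serpinf1 gave different ratios with its 2 probes. The brighter probe had mean signals of 347 and 1580 in the mutant samples, over local backgrounds of 54.5 and 54. In the control samples it had 44.1 and 121, over local backgrounds of 36 and 23, and it was well above background in the replicate 2 control sample but not in that of replicate 1. Its log2 ratios were 1.74 and 1.95, with a mean of 1.85 ± 0.14 (SD, n = 2), a 3.59-fold difference. With the processed signals the mean was 2.85. On the normalized log2 scale the mutant levels of this probe, 8.40 and 9.65, lay above its control levels of 6.66 and 7.70. The dimmer probe had mean signals of 85.5 and 167 in the mutant samples and 28.8 and 56 in the control samples, where replicate 1 lay below its local background of 32. Its ratios were 0.42 and 0.24, with a mean of 0.33 ± 0.12 (SD, n = 2), a 1.26-fold difference. On the normalized scale its mutant levels of 6.47 and 6.85 overlapped with its control levels of 6.05 and 6.60. With the processed signals the dimmer probe had ratios of 2.06 and 0.53, so the size of its ratio depends on the processing. In replicate 1 the scanner software had put a surrogate value in place of its control signal, so the 2.06 is not a ratio of 2 measured signals. In replicate 1 neither probe was well above background in the control sample, and there the ratios of both rest on the background step. Which probe stands for the transcripts of the PEDF gene was not tested.

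**Figure D1:**
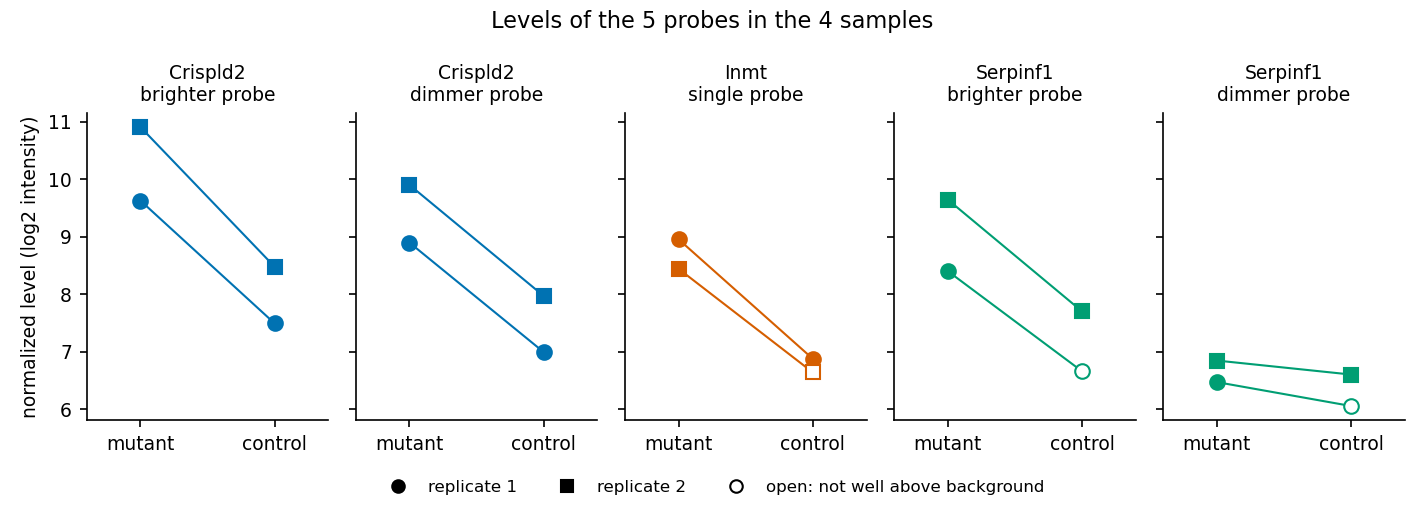
Normalized log2 level (vertical axis) of each of the 5 probes in the mutant and control samples, with a line joining the 2 samples of an array; circles are replicate 1, squares replicate 2, and open symbols were not well above background. In 4 probes both mutant samples lie above both control samples, and in the dimmer Serpinf1 probe the groups overlap.

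All 5 probes entered the fit over 22266 probes, which asks each array for at least 1 channel well above background. The 2 Crispld2 probes were above background in both channels on both arrays. The other 3 were so in the control channel on 1 array, and entered through the mutant channel. By limma's moderated test over all these probes, with Benjamini-Hochberg adjustment, 4 of the 5 member probes were past the threshold of 0.05, all higher in the mutant. Of all tested probes 0.368% were called in that direction. The same 4 probes had log2 ratios above 1 on both arrays, against 0.485% of all tested probes. In the same 4 both mutant levels exceeded both control levels, against 22.1% of all tested probes. These counts follow from how the genes were chosen and support nothing on their own. The mean ratio of the brighter probes ranked 8th for Crispld2, 19th for Inmt and 24th for Serpinf1, and the dimmer Serpinf1 probe ranked 2132nd. No member probe passed with no offset, the processed signals, the authors' value table, a trended and robust prior or separate fits of the channels. No probe of the array passed by limma's adjusted test in those settings, so the same holds for every gene named below as having risen.

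**Figure D2:**
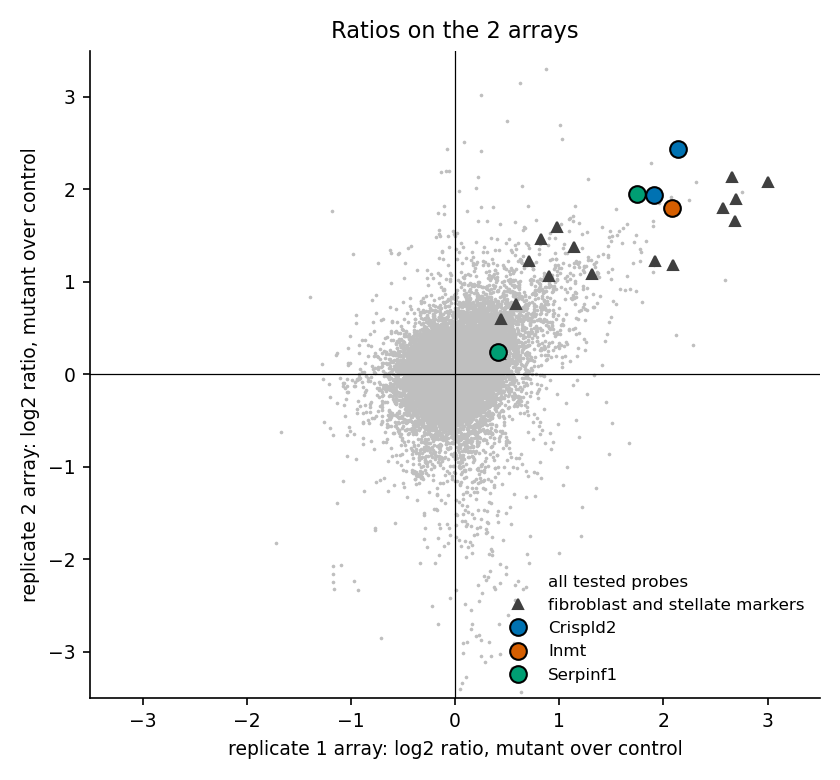
Log2 ratio of mutant over control on the replicate 1 array (horizontal axis) against the replicate 2 array (vertical axis) for all tested probes (grey), 16 fibroblast and stellate cell markers (triangles) and the member probes (coloured circles); 68 probes lie outside the axes. Of the member probes, 4 lie together at the upper right among the highest marker genes, and the dimmer Serpinf1 probe lies near the main cloud.

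**Figure D3:**
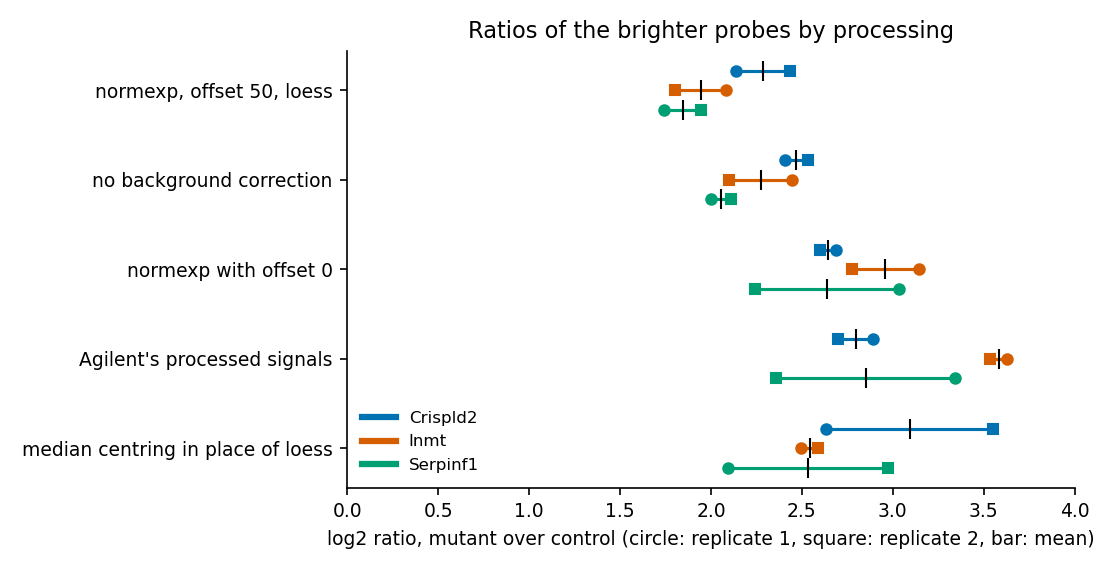
Log2 ratio of mutant over control (horizontal axis) of the brighter probe of each gene under 5 ways of processing; circles are replicate 1, squares replicate 2 and black bars the mean. All ratios are above 0, and Inmt moves the most, with means from 1.94 to 3.58.

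Between replicates of a genotype the 3 genes differed. Crispld2 and Serpinf1 were higher in replicate 2 than in replicate 1 in both genotypes, and Inmt was not. For the brighter Crispld2 probe the normalized log2 level was 9.63 and 10.91 in the mutant samples and 7.49 and 8.48 in the control samples. Replicate 2 thus exceeded replicate 1 by 1.28 in the mutant and by 0.99 in the control samples. For the brighter Serpinf1 probe the levels were 8.40 and 9.65 in the mutant samples and 6.66 and 7.70 in the control samples, differences of 1.25 and 1.04. The dimmer probes went the same way, by 1.01 in the mutant and 0.98 in the control samples for Crispld2, and by 0.38 and 0.55 for Serpinf1. For Inmt the levels were 8.96 and 8.44 in the mutant samples and 6.88 and 6.64 in the control samples, so replicate 2 was lower by 0.51 and 0.24. Over all tested probes, 90% of these differences lay between -0.49 and 0.52 in the mutant and between -0.44 and 0.48 in the control samples. Both Crispld2 probes and the brighter Serpinf1 probe lay outside these ranges in both genotypes. The dimmer Serpinf1 probe lay outside in the control and inside in the mutant samples, and Inmt lay outside, by little, in the mutant samples alone. Each difference compares 1 sample with 1 other and has no test. The differences of the 2 genotypes are not independent of each other, because samples of a replicate share an array and the genes were chosen for high ratios on both arrays. The lower replicate 2 values of Inmt also rest on the normalization, since its raw signals were slightly higher in replicate 2.

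Markers of fibroblasts and pancreatic stellate cells, the matrix-making cells of the stroma, were likewise higher in replicate 2. In replicate 2 they were higher in 16 of 16 genes in the mutant samples (median difference 0.88) and in 15 of 16 in the control samples (median 1.33). Their summed level was 13992 and 35719 in the mutant samples and 3012 and 10666 in the control samples, in units of normalized intensity. Other lists shared the difference between replicates. Markers of pericytes and smooth muscle were higher in replicate 2 in 6 of 6 tested genes in both genotypes (medians 1.11 mutant, 0.70 control). Endothelial markers were so in 7 of 8 (0.48 and 0.46) and Schwann cell markers in 4 of 4 (0.32 and 0.35). Leukocyte markers were so in 1 of 6 in each genotype. Of 22266 tested probes, 10752 were so in the mutant and 10356 in the control samples. Between genotypes all 16 fibroblast and stellate markers were higher in the mutant in both replicates, against 32.3% of all tested probes. Of the 16, all were well above background in both mutant samples but 10 in both control samples, against 18923 of 22266 tested probes. The rest, which include Lum and Mfap4, entered the fit through the mutant channel. The median log2 ratio was 1.23 and 1.30, against medians of 0.02 and 0.02 over all tested probes. Of the 16, 7 rose by limma's adjusted test, against 0.368% of all tested probes, and 9 did not pass. Those that rose were the collagen genes Col1a1 (2.66 and 2.13), Col1a2 and Col3a1, the proteoglycan genes Dcn and Lum, the microfibril gene Mfap4 (ratios of 1.14 and 1.37) and the surface glycoprotein gene Thy1 (1.32 and 1.08). Of the collagens Col1a2 had the highest mean ratio, 2.54 ± 0.65 (SD, n = 2). The lowest mean ratio of the 16 was that of Dpt, the dermatopontin gene (0.43 and 0.22). In these bulk samples more cells of a type and more RNA per cell cannot be told apart, and the part of stromal cells in the ratios of the 3 genes was not tested.

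**Figure D4:**
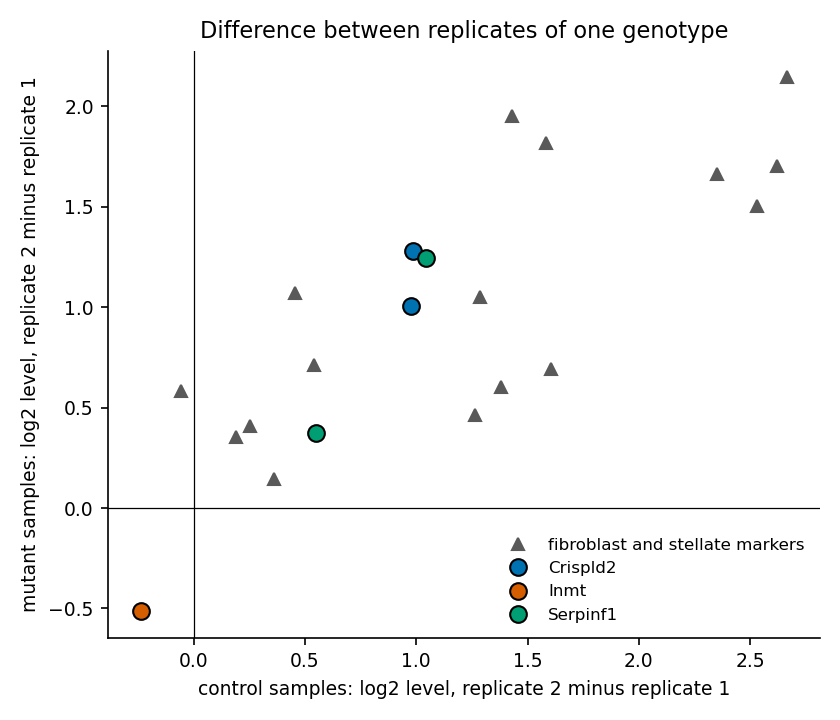
Normalized log2 level of replicate 2 minus replicate 1 in the mutant samples (vertical axis) and in the control samples (horizontal axis) for the 5 member probes (circles) and 16 fibroblast and stellate cell markers (triangles). Crispld2 and Serpinf1 lie among the markers at the upper right, and Inmt lies below 0 in both genotypes.

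Other cell types of the islet preparation gave mixed values. They are to be read against the 32.3% of all tested probes that were higher on both arrays and the 0.368% called higher. Data of this size were simulated with each change equal on both arrays and variances drawn from the fitted prior. The simulation gave both arrays the same spread, while the SD of the measured log2 ratios was 0.29 in replicate 1 and 0.48 in replicate 2. In the simulated data the test recovered 0% of changes of 0.5 on the log2 scale. It recovered 27.7% of changes of 1 and 98.5% of changes of 2. A count of 0 past the test thus says little about small changes. Nor does it exclude large changes that differ between arrays, such as that of the acinar gene Pnlip (mean -2.64 ± 4.72, SD, n = 2), which did not pass. Of 6 tested markers of pericytes and smooth muscle 5 were higher on both arrays (median ratios 0.47 and 0.66) and 0 passed, with the muscle myosin gene Myh11 at 0.49 and 1.07 and the pericyte gene Rgs5 at 0.98 and 0.46. Of 8 endothelial markers 7 were higher on both arrays (medians 0.46 and 0.53), and Kdr was lower on both (-0.28 and -0.88). Vwf, the von Willebrand factor gene, rose with ratios of 1.61 and 1.58 on the brighter of its 2 tested probes. The other Vwf probe did not pass. Of 7 tested duct markers 5 were higher on both arrays, and Spp1, the osteopontin gene (1.77 and 1.23), and Tspan8, a tetraspanin gene (1.41 and 1.59), rose. Of 9 listed markers of mesothelium, the lining of the organ surface, 3 were tested. Msln, the mesothelin gene, was well above background in all 4 samples, with ratios of -0.10 and 0.61, and Krt19 had 0.66 and 1.59. Krt19 and Krt7 are also duct genes, and Upk3b, Upk1b, Wt1, Lrrn4, Gpm6a and Bnc1 did not reach the detection filter. Leukocyte markers had medians of -0.01 and 0.15 over 6 tested genes, of which 3 were higher on both arrays and 0 passed. All 4 tested Schwann cell markers were higher on both arrays (medians 0.51 and 0.44), and 0 passed. Of these 4, 1 was well above background in both control samples. Among leukocyte genes the macrophage gene Adgre1 had 0.48 and 0.39, and the T cell gene Cd3e -0.39 and -0.53. Among Schwann genes S100b had 0.73 and 0.45. Of 6 adipocyte markers, Fabp4 alone was tested (1.33 and -0.01).

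By its pattern over the samples Inmt lay farther from Crispld2 and Serpinf1 than those lay from each other. For each gene, likeness was the Euclidean distance between its brighter probe and the brightest probe of 12936 other named genes, over the normalized log2 levels of the 4 samples, each probe centred on its own mean. The pattern nearest to Crispld2 was that of Serpinf1, at a distance of 0.44. Lum (0.57), the substance P precursor gene Tac1 (0.59), Dcn (0.61) and the neuropeptide gene Vip (0.68) followed. The pattern nearest to Serpinf1 was that of the water channel gene Aqp1 (0.40), followed by the ceruloplasmin gene Cp (0.41), Vwf (0.41), the collagen gene Col6a1 (0.44) and Crispld2 (0.44). For Inmt the 5 nearest were the replicative helicase gene Mcm4 (0.80), the lipase inhibitor gene Angptl4 (0.86), Tspan8 (0.86), the plasma carboxypeptidase gene Cpb2 (0.90) and Msmp (0.90). Crispld2 was 714th and Serpinf1 563rd in nearness to Inmt. With 4 samples the distance mixes the difference between genotypes with that between replicates, and it is given as a description.

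No relative of the 3 genes passed the test in the lists of their protein families. Of the 13 listed relatives of Crispld2 in the CAP superfamily, 1 reached the filter. This was Pi16, also a fibroblast marker, with ratios of 0.83 and 1.47, which did not pass. The closest relative, Crispld1, was on the array and did not reach the filter. Genes of endotoxin recognition, which bind lipopolysaccharide or pass its signal on, had medians of 0.19 and 0.22 over 5 tested genes with 0 past the test. In this list the co-receptor gene Cd14 had 0.62 and 1.01, and the binding protein gene Lbp 0.91 and 0.49. The list of genes that glucocorticoids induce, which also holds the receptor gene Nr3c1, had medians of 0.49 and -0.43 over 12 genes and 0 past the test. Cebpd, a transcription factor gene (2.12 and 0.43), and Tsc22d3, the leucine zipper gene induced by glucocorticoids (1.06 and 0.65), were the largest of those with 1 sign on both arrays.

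Among 15 tested small-molecule methyltransferases and enzymes of indole amines, 0 passed, with medians of 0.00 and -0.10. With median centring the median of their mean ratios was 0.52, between the shifts of all probes on the 2 arrays. Maob, which oxidises amines, had ratios of -0.45 and -0.06. Ddc, which makes tryptamine from tryptophan, had levels of 12.61 and 12.61 in the mutant samples and 12.86 and 12.25 in the control samples, with ratios of -0.25 and 0.36. Ahcy, which clears the product of methyl transfer, had ratios of 0.02 and -0.36. Nnmt, a relative of Inmt that methylates nicotinamide, did not reach the filter. Ddc and Ahcy were chosen after their values were seen.

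Among 12 tested serpins, 8 were higher in both replicates, against 32.3% of all tested probes, and 0 passed, and the list medians were 0.33 and 0.41. Serping1, the C1 inhibitor gene, had ratios of 1.11 and 0.83. Serpina1a, an alpha-1-antitrypsin gene, had ratios of 0.60 and 4.12, and its value is uncertain because near-identical copies of it exist. The collagen chaperone gene Serpinh1, named after its values were seen, had 1.00 and 0.72. Of 9 tested genes for reported receptors and partners of PEDF, 5 were higher and 2 lower on both arrays, with medians of 0.02 and 0.19. Of all tested probes 32.3% were higher on both. Of the 9 genes, 1 rose and 8 did not pass. Of all tested probes 0.368% were called higher in the mutant. The one that rose was Plxdc2, which encodes a transmembrane receptor reported for PEDF, with ratios of 1.78 and 1.35 and a mean of 1.57 ± 0.30 (SD, n = 2). Its levels were 9.75 and 10.21 in the mutant samples and 7.98 and 8.86 in the control samples. Both mutant levels exceeded both control levels, as they did in 22.1% of all tested probes. The following were named after their values were seen. Pnpla2, a lipase and reported receptor, had ratios of 0.04 and 0.13, the laminin receptor gene Rpsa -0.09 and -0.09, and Lrp6, a Wnt co-receptor gene, 0.10 and 0.19. The blood vessel growth factor gene Vegfa had -0.08 and 0.27, and its receptor gene Kdr -0.28 and -0.88. Of the other tested genes of this list, Hspg2 had 0.19 and 0.70, Flt1 -0.003 and 0.39, and Atp5b 0.02 and 0.18.

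**Figure D5:**
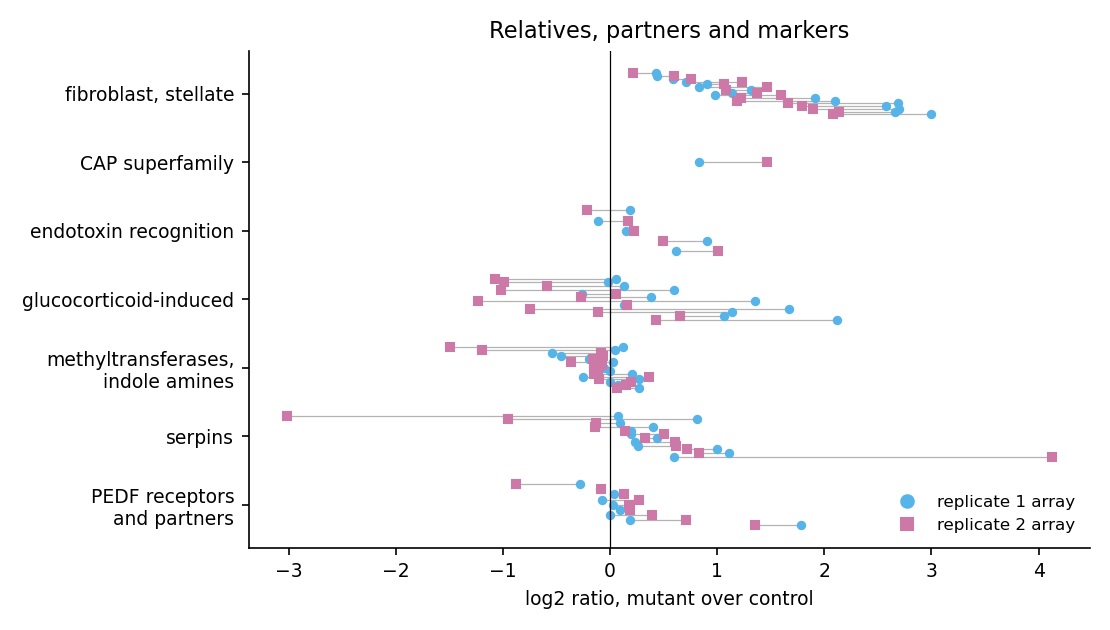
Log2 ratio of mutant over control (horizontal axis) of each tested gene in 7 lists; circles are the replicate 1 array, squares the replicate 2 array, and a grey line joins the 2 values of a gene. The fibroblast and stellate markers lie above 0 on both arrays, while the methyltransferase and indole amine genes scatter around 0 and the glucocorticoid-induced genes spread to both sides.

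The windows before the transcription starts of the 3 genes had little in common. The 120 bases before each start are shown, as given by RefSeq on GRCm38.p6, because each gene had a probe with a high mutant over control ratio. Rb acts on promoters through E2F factors, and whether these act on the 3 genes was not tested. RefSeq held 1 window for each of the 3 genes. The stretches are chr8:119992318-119992437 on the plus strand for Crispld2, and chr6:55174991-55175110 for Inmt and chr11:75422624-75422743 for Serpinf1 on the minus strand. Capitals mark matches on either strand to 4 motifs: the TATA box TATAAA, the GC box GGGCGG, the CCAAT box, and the E2F motif as any of the 4 words TTTCCCGC, TTTCGCGC, TTTGCCGC and TTTGGCGC.
Crispld2: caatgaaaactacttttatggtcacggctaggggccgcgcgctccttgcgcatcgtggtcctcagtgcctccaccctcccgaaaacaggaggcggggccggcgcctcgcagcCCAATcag
Inmt: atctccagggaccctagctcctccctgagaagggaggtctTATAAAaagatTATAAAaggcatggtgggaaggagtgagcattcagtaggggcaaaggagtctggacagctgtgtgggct
Serpinf1: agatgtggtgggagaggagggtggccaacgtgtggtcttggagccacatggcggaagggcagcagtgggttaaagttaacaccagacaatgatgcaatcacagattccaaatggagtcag

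Inmt held TATAAA at 69 and 80 bases before its start, as do 13.6% of 32851 such windows of 300 bases somewhere in the window. Crispld2 and Serpinf1 held a CCAAT box, as do 37.4% of windows, and that of Serpinf1 lies outside the stretch shown. None of the 3 held the E2F words, which are in 2.26% of windows, or GGGCGG, which is in 35.7%. The 250 bases before the start held 18 CG dinucleotides in Crispld2, 0 in Inmt and 2 in Serpinf1, with a median of 6 over all windows, and 63.2%, 48.0% and 51.6% G and C, with a median of 52.4%. A match or its absence describes these letters in this window and shows nothing about the binding of a factor.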

How the data were processed

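The members and gene lists were chosen with earlier results of these data known. The submitters' processing notes name Agilent Feature Extraction 10.7.3.1. Of the deposited intensity columns, per the file headers, mean spot signals and median local backgrounds are raw, and the software corrected the processed signals for background and dye. The deposited log10 ratios are of red (mutant) over green (control) processed signals, per the file headers, each with a deposited p-value that covers error within 1 array and was not used. The authors' value table of the series equals these log10 ratios (largest difference 0, column medians 0 and 0). Here, limma 3.58.1 (R 4.3.3) subtracted background from the mean signals (normexp, offset 50) and normalized the ratios by loess (span 0.3) within each array. Control spots and 4 non-uniform gene spots per array were left out, and spots of 1 probe were averaged. Levels are log2 intensities of each channel after a further quantile step between arrays (Aquantile). The mean ratio was tested against 0 (limma, lmFit and eBayes, two-sided), p-values were adjusted by Benjamini-Hochberg over 22266 probes, and the threshold was 0.05. Mutant and control are paired by sharing an array. The residual degree of freedom of a probe is 1 and that of the prior 4.90. The labels call the replicates biological. The fit was tested on simulated data with each change equal on both arrays and variances drawn from the fitted prior. There it recovered 0 of 52 changes of 0.5, 23 of 83 of 1 and 64 of 65 of 2 (log2), with 6 false calls. The offset draws ratios of dim probes towards 0. Loess assumes that most probes are alike in both channels. Genes other than the members were named through a RefSeq table of GRCm38.p6, 26762 of 55681 probes by accession, 3819 by symbol and 634 by synonym. Where a gene had several probes, the one with the highest mean intensity was used. Named in the text are all member probes, the genes of each list past the threshold or, with none, the 2 with the largest mean ratio and 1 sign on both arrays, and the 5 nearest patterns of each member. Of the genes this rule names, 2 are not reported here. Sequences are from the scanner files and RefSeq.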

Additional observations from a re-analysis of the deposited data

How the results depend on the processing

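The mean log2 ratios of the brighter probes (2.29 for Crispld2, 1.94 for Inmt, 1.85 for Serpinf1) stayed above 0 in every alternative that was run. In the same order they were 2.64, 2.96 and 2.64 with no offset, 2.79, 3.58 and 2.85 with Agilent's processed signals, and 2.79, 3.57 and 2.86 with the series matrix values. With median centring they were 3.09, 2.54 and 2.53, where the medians of all tested probes were 0.39 and 0.84. Without background correction Inmt had 2.27 and Serpinf1 2.05. The other probe had 1.92 for Crispld2 and 0.33 for Serpinf1. Leaving out 1 array in turn gave 2.14 to 2.43, 1.80 to 2.08 and 1.74 to 1.95, with no test, since no residual degree of freedom is left.

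The count of 85 probes past the threshold by limma's adjusted test became 0 in the 6 settings named next, where many probes still had an unadjusted p under 0.05. These probes numbered 2528 in the reported fit, 2471 with no offset, 2351 with the processed signals, 2355 with the series matrix and 2143 with the prior trended and robust. They numbered 2231 when channels were fitted separately with the replicate block and 1510 without that block. The count past the adjusted threshold was 355 with no filter and 6735 with median centring. With both channels above background 2 of the member probes, those of Crispld2, could be tested. The median of the methyltransferase and indole amine list was -0.10, and 0.52 with median centring. With no filter and with both channels above background other numbers of probes were tested, and the cause of the other differences was not tested. Signals near background limit the size of the Inmt and Serpinf1 ratios.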
